A study of Mus musculus with 5 samples.

Results

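The genes described here are 44 genes of DNA replication and mitosis, taken by symbol from a fixed list of 21 replication genes and 23 mitosis genes. All 44 were found among the 24347 gene symbols of the deposited tables. The series measured RNA in small pools of cells sorted by TVA, the receptor of an avian virus, from precancerous lesions of mouse mammary glands. Every mouse carried the MMTV-Wnt-1 transgene, which drives Wnt-1 in mammary epithelium from the MMTV LTR, on a mixture of FVB, SJL and C57BL/6. There were 2 libraries of keratin 6a+ cells (Krt6a+, numbered 2 and 3), which the labels call precancerous stem cells, and 3 libraries of whey acidic protein cells (WAP+, numbered 1 to 3). No treatment, time or age of the mice is given, and the labels name no animal for any library. The p-values thus cover the spread between these 5 samples, part or all of which may be technical. The labels also do not say how TVA marked each population, so a difference between mice or sorts and a difference between the populations cannot be told apart.

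Before a cell divides, origins of replication are loaded with the MCM helicase by Cdc6 and Cdt1, and in S phase the helicase, polymerases, the PCNA clamp and its loader, and enzymes of nucleotide supply copy the DNA. In G2 phase and mitosis the kinase Cdk1 with cyclins A and B, the Aurora and Polo kinases, the spindle and the checkpoint separate the copies, and the anaphase-promoting complex ends mitosis by degrading cyclins. Most of these transcripts are low in resting cells and rise in cycling cells, so as a set they are widely used to mark proliferation. In the mammary gland, proliferation is known for the growing ducts and for the alveoli of pregnancy.

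Levels are FPKM, fragment counts normalised to transcript length and to all mapped fragments of a library, and scaled FPKM is that value divided by a factor per library. Values in each library are scaled FPKM unless stated, in the order Krt6a+ 2 and 3, then WAP+ 1, 2 and 3. Read totals are not given in the tables, so depth was judged from the symbols above 0, 10417 and 10523 in the Krt6a+ and 10980, 10655 and 10634 in the WAP+ libraries. The 6 mammary epithelial markers (Epcam, Krt8, Krt18, Krt5, Krt14 and Cdh1) were above 0 in every library, but their levels moved with the groups. Krt5, a keratin of basal cells, had 443 and 331 in the Krt6a+ and 19.7, 14.8 and 39.7 in the WAP+ libraries and passed the test (limma, log2 difference 4.02 ± 0.49 SE, adjusted p = 0.0275). The luminal keratins did not pass but their groups did not overlap, Krt8 with 67.5 and 637 against 1460, 2110 and 1925 and Krt18 with 361 and 1138 against 3526, 3670 and 4046 (limma, adjusted p = 0.117 and 0.0607). Levels of basal and luminal keratins thus moved together with the groups compared, and their part in the results below was not tested. Krt6a had FPKM 1133 or more in the Krt6a+ and 168 or less in the WAP+ libraries, and Wap was listed at 0 in both Krt6a+ libraries. Of 8 leukocyte markers 5, among them Ptprc, were listed at 0 in all libraries, and the summed FPKM of the list was 6.49 and 21.4 in the Krt6a+ and 10.1, 26.4 and 19.5 in the WAP+ libraries. Endothelial markers summed to 23.2 in WAP+ library 1 and to at most 0.744 in the others. Fibroblast markers summed to 57.5 and 210.1 in the Krt6a+ and 17.1, 8.60 and 84.2 in the WAP+ libraries. Dcn alone made up most of that sum in every library. In Krt6a+ library 3, with the highest sum, Col1a1, Col1a2, Col3a1 and Pdgfra were listed at 0. The collagen genes of the list were all above 0 in Krt6a+ library 2 and WAP+ library 3 only. The sum thus follows Dcn and not the fibroblast list as a whole. Of the 4 adipocyte markers only Fabp4 was above 0, with FPKM 2188, 65.8 and 20.3 in the WAP+ libraries, and the erythroid markers found were all at 0. The part of these other cell types was not tested either. The housekeeping genes Rpl10, Rpl11 and Eno1 were listed at 0 in all 5 libraries and Gapdh in 3, so a 0 in these tables can be an estimate that failed. Genes with zeros are therefore given library by library, with no mean level, and fitted differences, sums and counts by mean take the zeros as they stand.

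Fewer of the 44 genes were listed above 0 in each Krt6a+ library than in any WAP+ library. Of the 21 replication genes, 10 and 15 were above 0 in the Krt6a+ libraries, against 20, 19 and 18 for WAP+. Of the 23 mitosis genes, the numbers were 8 and 11 against 17, 15 and 14. At FPKM 1 or more the replication genes numbered 8 and 8 against 17, 18 and 12, and the mitosis genes 3 and 5 against 11, 11 and 9. The groups did not overlap in any of these 4 counts. Over all 9682 genes tested below, the share above 0 was 89.3% and 91.1% in the Krt6a+ and 94.6%, 92.6% and 91.9% in the WAP+ libraries, so fewer genes of any kind were also listed above 0 in the Krt6a+ libraries, by a smaller margin. At FPKM 1 or more that share was 79.1% and 83.2% against 86.5%, 82.6% and 81.0%, which overlapped. These 9682 genes passed a filter that 16 of the 44 did not. Over all 24347 symbols, without the filter, the share above 0 was 42.8% and 43.2% against 45.1%, 43.8% and 43.7%. Krt6a+ library 2 had the lowest number for both sets, with 11 replication and 15 mitosis genes at 0. Bulk libraries cannot tell fewer cells that express a gene from less RNA of it per cell. A listed 0 can also be an estimate that failed, and how many of the zeros counted here were such was not tested.

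**Figure D1:**
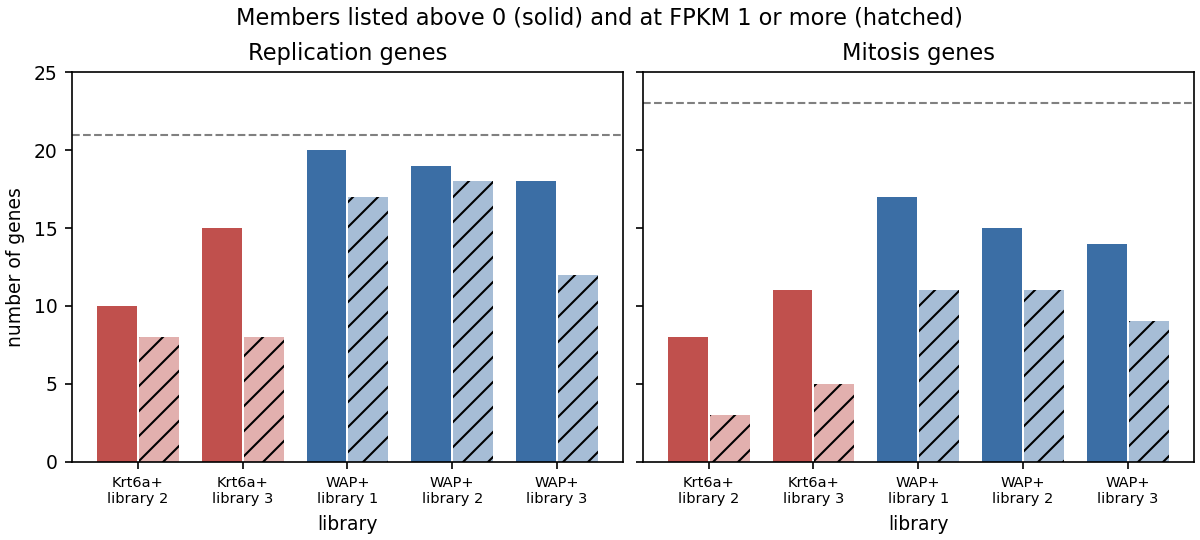
Number of replication genes (left) and mitosis genes (right) listed above 0 (solid bars) and at FPKM 1 or more (hatched bars) in each library, Krt6a+ in red and WAP+ in blue; dashed lines mark the 21 and 23 genes of each set. The Krt6a+ libraries had 10 and 15 replication and 8 and 11 mitosis genes above 0, below all WAP+ libraries.

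The zeros differed in kind. Of the 220 values of 44 genes in 5 libraries, 73 were exactly 0, and in 57 of these the deposited upper bound of the FPKM was also 0, as it was for Rpl10 and Rpl11, so such a 0 sets no limit on the level. In the other 16 the upper bound was above 0, at most 0.525 FPKM. Eno1 was also listed at 0 in all 5 libraries, with an upper bound above 0 in each. Such a bound may therefore not limit the level either. Ccnb1, cyclin B1, and the checkpoint kinase gene Bub1 were listed at 0 with an upper bound of 0 in every library. Kif20a, a kinesin of the central spindle, was also listed at 0 throughout, with upper bounds above 0. Only 9 of the 44 genes were above 0 in all libraries (Mcm4, Mcm7, Pcna, Rfc3, Fen1, Rrm1, Cdk1, Cks1b and Mki67), and 3 were at FPKM 1 or more in all of them, Mcm7, Pcna and Cks1b. The cyclin-dependent kinase subunit Cks1b had the highest level of the 44 genes in every library but was the only mitosis gene above 20 scaled FPKM.

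**Figure D2:**
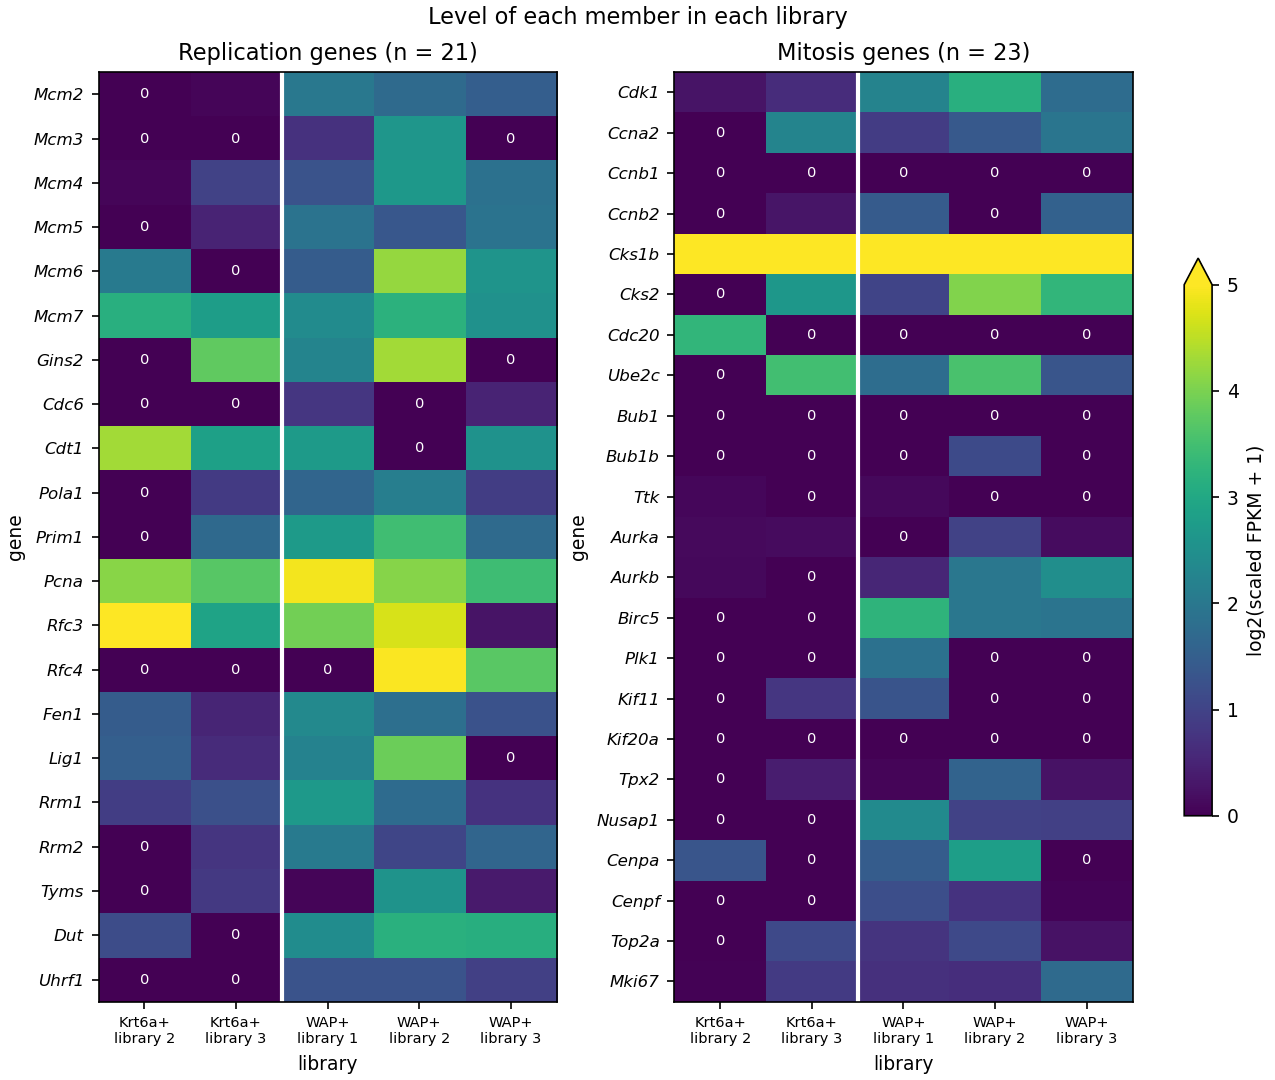
Level of each of the 21 replication genes (left) and 23 mitosis genes (right), rows, in each library, columns, as log2(scaled FPKM + 1); values above 5 share the top colour and a printed 0 marks an exact 0 in the table. Zeros are more frequent left of the white line, in the Krt6a+ libraries, and Cks1b is high in all 5 libraries.

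No gene of either set passed the test between the populations. Genes at FPKM 1 or more in at least 2 libraries were tested on log2(scaled FPKM + 1) with limma, and 18 replication and 10 mitosis genes entered. With limma, 0 of the 28 were higher and 0 lower in Krt6a+ libraries at an adjusted p under 0.05, with adjusted p from 0.124 to 0.951, against 0.258% of all tested genes higher and 0.434% lower. Before adjustment, at p under 0.05, 0 were higher and 6 lower, 3 replication genes (Dut, Mcm2 and Mcm5) and 3 mitosis genes (Cks1b, Birc5 and Cdk1), where 7.66% of all tested genes were higher and 9.45% lower. The differences leaned one way: 15 of 18 replication and 10 of 10 mitosis genes had a negative difference, Krt6a+ minus WAP+, as did 50.2% of all tested genes. The median log2 difference was -1.15 for the replication and -1.16 for the mitosis genes, against -0.01 for all tested genes. Among the 4943 tested genes with a mean level below that of FPKM 5, a limit set after the values were seen, the median was 0.03 and 48.3% were negative.

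The filter itself leaned toward the WAP+ libraries, of which there were more. Of the tested genes, 6 of 18 replication and 4 of 10 mitosis genes reached FPKM 1 only in WAP+ libraries, 33.3% and 40.0%, against 7.44% of all tested genes, and 0 reached it only in Krt6a+ libraries, against 2.32%. The counts over tested genes are thus no support for a direction. Over all members above 0 in any library, without the filter, 18 of 21 replication and 16 of 20 mitosis genes had the higher mean in WAP+ libraries, as did 51.8% of the 14116 symbols above 0 in any library. With no filter the median difference was -1.11 for the replication and -0.61 for the mitosis genes. With a pseudocount of 0.1 the medians were -2.76 and -1.91, and with 5 they were -0.39 and -0.45, so their size depended on the constant added to low values.

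The WAP+ libraries all lay above both Krt6a+ libraries for 14 of the 44 genes, 8 replication and 6 mitosis genes, and for 12 of the 28 tested ones, against 17.4% of all tested genes. Over all symbols above 0 in any library that share was 13.4%, and 31.8% for the 44 genes. The reverse order was seen for 1 gene, Cdt1, against 17.4% of all tested genes, and Cdt1 had a listed 0 in WAP+ library 2. Uhrf1, Birc5, Nusap1 and Cenpf were listed at 0 in both Krt6a+ libraries and above 0 in all WAP+ libraries, and of these Uhrf1 and Birc5 were tested, where 1.71% of all tested genes had that pattern. The opposite pattern, 0 in all WAP+ and above 0 in both Krt6a+ libraries, was seen for 0 members and 0.744% of all tested genes. For 11 of the 14 genes at least 1 Krt6a+ value was a listed 0, and Mcm4, Cdk1 and Cks1b were above 0 in both Krt6a+ libraries. Each of these zeros in the 11 genes had an upper bound of 0 as well, so it sets no limit on the level. The order of the groups thus rests on values above 0 in every library only for Mcm4, Cdk1 and Cks1b, which limits the shares given above. Prim1 and Pola1 were among the 14 on scaled values only, and their FPKM as deposited overlapped between the groups.

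**Figure D3:**
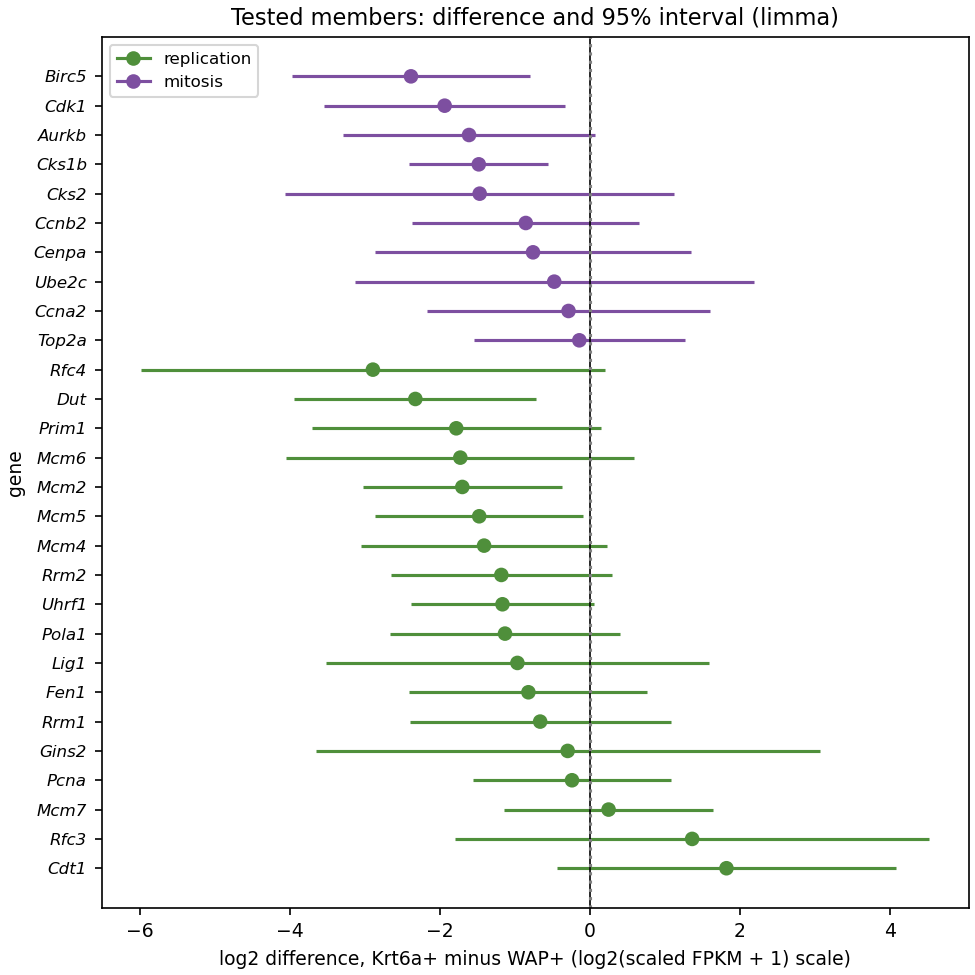
Log2 difference, Krt6a+ minus WAP+, of the 28 tested genes on the log2(scaled FPKM + 1) scale (points) with 95% intervals from limma (lines), mitosis genes in purple above replication genes in green; the dotted line is the median of all tested genes, -0.01. Points for 25 genes lie left of 0, most intervals include 0, and Cdt1, Rfc3 and Mcm7 lie to the right.

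Promoters of the members are shown because replication and mitosis genes are known to be switched on by different elements, E2F sites and the cell cycle homology region (CHR) with CCAAT boxes. RefSeq promoter sequences of GRCm38.p6, 250 bases before to 50 after the start, were matched by symbol to 19 replication and 19 mitosis genes. Letters searched on both strands were TTTCGCGC or TTTGGCGC for E2F, TTTGAA for CHR and CCAAT, and E2F matches on opposite strands may share bases with each other. E2F letters were in the promoters of 9 of 19 replication genes (47.4%), 1 of 19 mitosis genes (5.26%) and 0.929% of all 27025 genes in the table. Dut and Cdc6 were counted without E2F letters, but for both the window followed the start of 1 transcript only. A start further upstream, whose transcript held their FPKM in WAP+ libraries 1 and 3, lay outside the window. CHR letters were in 2 replication genes (10.5%), 14 mitosis genes (73.7%) and 20.2% of all genes. CCAAT was in 12 (63.2%), 17 (89.5%) and 41.1%. The promoters printed are those of Mcm5, with E2F letters and CCAAT, Cdk1, with all 3 kinds of letters, Cks1b, with CHR and CCAAT, and Birc5, with none in this window, and the 250 bases before the start are given. All 4 are among the 14 genes above, with a listed 0 in both Krt6a+ libraries for Birc5 and in library 2 for Mcm5. Each is written from 5′ to 3′ along the gene, with the matches in capitals.
Mcm5 (chr8:75109259-75109508, plus strand): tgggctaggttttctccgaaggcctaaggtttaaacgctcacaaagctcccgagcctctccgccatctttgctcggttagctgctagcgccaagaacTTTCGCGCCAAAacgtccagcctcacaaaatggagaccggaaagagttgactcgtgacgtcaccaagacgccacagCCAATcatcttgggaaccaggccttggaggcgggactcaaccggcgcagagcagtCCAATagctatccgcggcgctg
Cdk1 (chr10:69352913-69353162, minus strand): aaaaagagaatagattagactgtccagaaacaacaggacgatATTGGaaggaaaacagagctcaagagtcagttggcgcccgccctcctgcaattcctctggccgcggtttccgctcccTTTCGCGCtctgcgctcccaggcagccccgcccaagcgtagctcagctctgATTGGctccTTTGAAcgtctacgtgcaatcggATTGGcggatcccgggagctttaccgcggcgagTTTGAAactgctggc
Cks1b (chr3:89418292-89418541, minus strand): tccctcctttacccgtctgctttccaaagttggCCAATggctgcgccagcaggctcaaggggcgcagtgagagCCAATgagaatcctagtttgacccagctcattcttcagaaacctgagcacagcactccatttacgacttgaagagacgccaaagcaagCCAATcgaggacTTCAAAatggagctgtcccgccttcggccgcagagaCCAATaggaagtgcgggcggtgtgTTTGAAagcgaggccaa
Birc5 (chr11:117848987-117849236, plus strand): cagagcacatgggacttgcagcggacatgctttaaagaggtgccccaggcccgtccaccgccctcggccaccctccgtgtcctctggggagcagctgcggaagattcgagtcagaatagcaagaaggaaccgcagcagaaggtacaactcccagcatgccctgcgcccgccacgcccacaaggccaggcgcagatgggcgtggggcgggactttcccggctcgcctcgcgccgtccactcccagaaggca

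Among the helicase genes the subunits did not follow one pattern. Mcm2 had 0 and 0.055 in the Krt6a+ and 3.03, 2.32 and 1.80 in the WAP+ libraries. Mcm5 had 0 and 0.409 against 2.74, 1.58 and 2.75, and Mcm4 had 0.043 and 0.975 against 1.41, 5.37 and 2.63. For these 3 subunits every WAP+ value was above the listed Krt6a+ values, which include a 0 for Mcm2 and Mcm5, with log2 differences of -1.70 ± 0.58 (SE), -1.48 ± 0.60 and -1.41 ± 0.71 (limma, adjusted p = 0.188, 0.259 and 0.355). Mcm7, another subunit of the same hexamer, had 7.88 and 5.85 in the Krt6a+ and 4.33, 8.23 and 4.77 in the WAP+ libraries. Its groups overlapped and its mean was 6.87 ± 1.43 (SD, n = 2) against 5.78 ± 2.13 (SD, n = 3), a log2 difference of 0.25 with a 95% interval of -1.14 to 1.64. Mcm6 had 3.13 and 0 against 1.74, 17.6 and 5.02, and Mcm3 had 0 and 0 against 0.633, 5.20 and 0, both overlapping. Gins2, a subunit of the GINS complex that joins the active helicase, varied most, with 0 and 12.7 against 3.78, 18.7 and 0. Mcm2 is at chr6:88883474-88898780 of mm10 on the minus strand, and its deposited bounds reached from 0.902 to 2.24 FPKM in WAP+ library 3, the lowest of its group, against 0 to 0.186 for Krt6a+ library 3.

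Of the loading factors, Cdt1 had 18.9 and 6.20 in the Krt6a+ and 5.64, 0 and 4.87 in the WAP+ libraries. The Krt6a+ libraries were far apart, and the lower Krt6a+ value was close to the highest WAP+ value (limma, log2 difference 1.82 ± 0.98 SE, adjusted p = 0.393). The 0 of WAP+ library 2, taken as it stands in that difference, had an upper bound of 0 and so sets no limit on the level. Cdc6 had 0 and 0 against 0.729, 0 and 0.408 and was not tested.

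Of the 7 genes of DNA synthesis, none passed and 2 had groups that did not overlap on scaled values. Prim1, a primase subunit, had 0 and 2.26 in the Krt6a+ and 5.60, 10.0 and 2.31 in the WAP+ libraries, and Pola1, the catalytic subunit of DNA polymerase alpha, 0 and 0.811 against 2.11, 3.43 and 0.874. In both genes Krt6a+ library 3 lay just under WAP+ library 3 (limma, adjusted p = 0.323 and 0.431). Pcna, the sliding clamp, had 16.3 and 12.0 against 28.9, 16.0 and 9.91, so the groups overlapped. Its mean was 14.1 ± 3.05 (SD, n = 2) against 18.3 ± 9.70 (SD, n = 3), a log2 difference of -0.24 with a 95% interval of -1.56 to 1.08 (limma, adjusted p = 0.883). The clamp loader subunits disagreed: Rfc3 had 53.0 and 6.43 against 14.3, 24.9 and 0.194, while Rfc4 was listed at 0 in both Krt6a+ libraries and in WAP+ library 1, with 30.2 and 12.2 in WAP+ libraries 2 and 3. The flap endonuclease gene Fen1 had 1.74 and 0.439 against 4.12, 2.56 and 1.38, and the ligase gene Lig1 had 1.86 and 0.522 against 3.63, 13.7 and 0, and both overlapped.

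Among enzymes of nucleotide supply, Dut, the dUTPase that keeps uracil out of DNA, had 1.24 and 0 in the Krt6a+ and 4.43, 8.00 and 7.73 in the WAP+ libraries. The listed values of the groups were well apart, but the 0 of Krt6a+ library 3 had an upper bound of 0 and so sets no limit. With that 0 taken as it stands, Dut had the lowest adjusted p of the replication genes (limma, log2 difference -2.33 ± 0.70 SE, 95% interval -3.94 to -0.72, adjusted p = 0.149). Its difference was -4.17 with a pseudocount of 0.1 and -1.05 with 5. The transcript given its FPKM differed within the WAP+ group. NM_001159646 (chr2:125247248-125259049, mm10) held the FPKM of 5.05 and 6.75 in libraries 1 and 3. NM_023595, which starts further in, held the 7.27 of library 2. Whether the transcript in use differed was not tested. Rrm2, the small subunit of ribonucleotide reductase, had 0 and 0.713 against 3.14, 1.06 and 2.08 and did not overlap (limma, adjusted p = 0.394). Its partner Rrm1 had 0.872 and 1.32 against 5.46, 2.36 and 0.662 and overlapped. Tyms, the thymidylate synthase, was not tested, with 0 and 0.768 against 0.042, 4.95 and 0.278. Uhrf1, which brings maintenance DNA methylation to new DNA, was listed at 0 in both Krt6a+ libraries and had 1.43, 1.41 and 0.933 in the WAP+ libraries, the narrowest spread of any replication gene there (limma, adjusted p = 0.310).

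**Figure D4:**
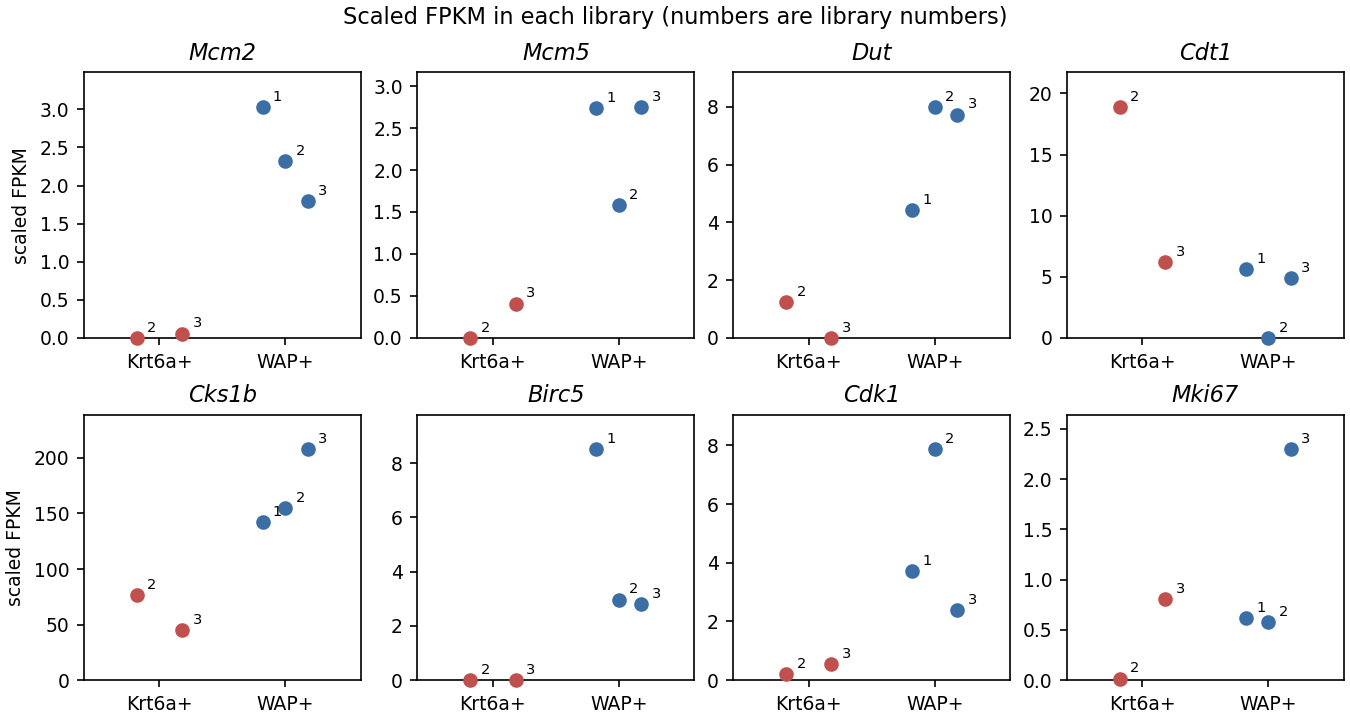
Scaled FPKM of 4 replication genes (top) and 4 mitosis genes (bottom) in each library, Krt6a+ in red and WAP+ in blue, each point 1 library with its number; every axis starts at 0 and the scales differ. WAP+ libraries lie above both Krt6a+ libraries for Mcm2, Mcm5, Dut, Cks1b, Birc5 and Cdk1, the order is reversed for Cdt1, and the groups overlap for Mki67.

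Of the cyclins and their kinase, Cdk1, the kinase that starts mitosis, had 0.194 and 0.552 in the Krt6a+ and 3.72, 7.88 and 2.39 in the WAP+ libraries. Every WAP+ library was above both Krt6a+ libraries, and the mean was 0.373 ± 0.254 (SD, n = 2) against 4.66 ± 2.86 (SD, n = 3). The log2 difference was -1.94 ± 0.69 SE (limma, 95% interval -3.55 to -0.33, adjusted p = 0.207), and -3.28 with a pseudocount of 0.1 and -0.81 with 5. The deposited bounds of Cdk1 (chr10:69336635-69352912, mm10, minus strand) were 0.208 to 1.04 FPKM in Krt6a+ library 3, the higher of that group, against 1.44 to 2.74 in WAP+ library 3, the lowest of its group. Ccna2, cyclin A2, was detected in Krt6a+ library 3 above all WAP+ libraries, with 0 and 3.76 against 0.862, 1.62 and 2.87. Ccnb2, cyclin B2, had 0 and 0.214 against 1.69, 0 and 1.95.

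Cks1b and Cks2 encode small subunits that bind cyclin-dependent kinases. Cks1b (chr3:89415472-89418291, mm10, minus strand) had 76.8 and 44.8 in the Krt6a+ and 142, 155 and 208 in the WAP+ libraries. The mean was 60.8 ± 22.6 (SD, n = 2) against 168 ± 34.9 (SD, n = 3), with a fitted log2 difference of -1.48 ± 0.40 SE and a 95% interval of -2.41 to -0.56. This was the lowest adjusted p of the 44 genes (limma, adjusted p = 0.124), and it rested on no zero or near-zero value. The deposited bounds, which cover counting error only, were 65.3 to 85.1 FPKM in the higher Krt6a+ library, number 2, against 127 to 154 in the WAP+ library lowest by FPKM, number 2, and did not meet. Over the 15 alternatives its difference ran from -1.86 without Krt6a+ library 2 to -1.09 without Krt6a+ library 3, with adjusted p from 0.0899 to 0.260. Cks2 was lower in level and varied more, with 0 and 5.23 against 1.05, 15.5 and 8.84.

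Cks1b set the summed level of the mitosis genes. The sum was 87.5 and 67.9 in the Krt6a+ and 173, 210.2 and 237 in the WAP+ libraries, of which Cks1b made up 66.0% to 87.9%. Without Cks1b, a step added after the values were seen, the sums were 10.7 and 23.1 against 31.6, 55.3 and 28.7, which also did not overlap. In Krt6a+ library 2, Cdc20 alone made up 82% of that sum. The ratio of the group means, Krt6a+ over WAP+, was 0.376 with Cks1b and 0.439 without Cks1b. The summed replication genes overlapped, at 104.9 and 51.4 against 97.2, 178 and 60.9, where Rfc3 alone was 53.0 in Krt6a+ library 2.

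Birc5, survivin, and Aurkb, Aurora B, belong to the chromosomal passenger complex. Birc5 was listed at 0 in both Krt6a+ libraries, with an upper bound of 0, and had 8.51, 2.96 and 2.81 in the WAP+ libraries (limma, adjusted p = 0.138). Its deposited bounds for the main transcript NM_009689 were 0.551 to 4.25 FPKM in WAP+ library 3, so the lowest WAP+ value was itself imprecise. Aurkb had 0.077 and 0 against 0.453, 2.96 and 4.58 (limma, log2 difference -1.61 ± 0.73 SE, adjusted p = 0.309). The WAP+ values of both genes lay above the listed Krt6a+ values, of which the zeros set no limit. The spindle-pole kinase gene Aurka, not tested, stayed at 0.974 or below in all libraries, and Plk1, the Polo-like kinase, was above 0 only in WAP+ library 1, at 2.65.

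Of the checkpoint and anaphase genes, Bub1b had a value in WAP+ library 2 only, at 1.18, and the checkpoint kinase gene Ttk did not pass 0.083 in any library. Cdc20, the activator of the anaphase-promoting complex, was above 0 only in Krt6a+ library 2, at 8.80, against the direction of most members. Ube2c, the ubiquitin-conjugating enzyme of that complex, had 0 and 10.2 against 2.44, 10.9 and 1.49, and its groups overlapped.

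Spindle and chromosome genes included the usual proliferation markers. Mki67, which encodes Ki-67, had 0.015 and 0.802 in the Krt6a+ and 0.616, 0.576 and 2.30 in the WAP+ libraries. Krt6a+ library 3 exceeded WAP+ libraries 1 and 2, and the gene reached FPKM 1 in WAP+ library 3 only, so it was not tested. Top2a, the topoisomerase that untangles chromosomes, had 0 and 1.16 against 0.691, 1.14 and 0.177, with a log2 difference of -0.14 and a 95% interval of -1.55 to 1.26 (limma, adjusted p = 0.942). Neither marker separated the populations. Nusap1, a spindle protein, had 0 and 0 against 4.22, 0.971 and 0.933, and Cenpf, a kinetochore protein, 0 and 0 against 1.31, 0.667 and 0.032. Cenpa, the centromeric histone, had 1.49 and 0 against 1.74, 5.97 and 0, Tpx2 had 0 and 0.314 against 0.049, 2.02 and 0.190, and Kif11, the kinesin that separates spindle poles, had 0 and 0.739 against 1.48, 0 and 0. These last 3 genes overlapped.

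Further genes of the same processes, from lists outside the 44, gave the same counts of calls. With limma 0 of 27 tested replication genes of 38, 0 of 26 tested mitosis genes of 55 and 0 of 7 tested genes of cell cycle transcription and G1/S control of 18 passed the adjusted threshold. Before adjustment, at p under 0.05, they gave 0 higher and 5 lower, 1 higher and 5 lower, and 1 higher and 0 lower. Negative differences were held by 23 of 27, 20 of 26 and 2 of 7 genes, with medians of -0.61, -0.98 and 0.87, where all tested genes had 50.2% negative and, before adjustment, 9.45% lower. The filter's lean toward WAP+ libraries applies to these lists too, so the counts are no support for a direction. The further replication genes with the largest statistics were Cdc7 and Dbf4, the kinase and its activator that fire origins, and Pola2. Cdc7 had FPKM 0 and 0 in the Krt6a+ and 2.04, 3.26 and 5.61 in the WAP+ libraries, Dbf4 had 0.738 and 0.600 against 5.50, 3.01 and 3.04, and Pola2 had 0.325 and 0 against 5.51, 4.02 and 1.04 (limma, adjusted p = 0.159, 0.254 and 0.230). All 3 had their WAP+ values above the listed Krt6a+ values, which include zeros for Cdc7 and Pola2. They were picked by their statistics in these same data and reached FPKM 1 in WAP+ libraries only. Their order is thus no support for a direction.

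Of the further mitosis genes, H2afz, a histone variant, had FPKM 0.207 and 2.99 against 8.44, 37.6 and 31.9 (limma, adjusted p = 0.106), and Pbk, a mitotic kinase, 0 and 0 against 4.21, 1.11 and 4.77 (limma, adjusted p = 0.188). Cdc25b, a phosphatase that activates Cdk1, went the other way, with FPKM 41.9 and 9.91 in the Krt6a+ and 2.90, 1.11 and 2.55 in the WAP+ libraries (limma, log2 difference 2.72 ± 0.78 SE, adjusted p = 0.137). Of the transcription list, Lin54, the DNA-binding subunit of the MuvB complex, had FPKM 7.22 and 5.12 against 1.05, 1.16 and 0, and Tfdp1, the partner of E2F factors, 8.85 and 10.8 against 6.61, 5.48 and 2.27 (limma, adjusted p = 0.182 and 0.497). E2f4 had 4.45 and 9.43 against 16.5, 15.1 and 7.86, groups that did not overlap on scaled values only (limma, adjusted p = 0.438). None of these passed. They too were picked by their statistics in these same data, so the order of their groups is no support for a direction.

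Genes with the same letters had differences of unlike size or sign. Cdt1, Rfc3 and Mcm7, the replication genes with positive differences (limma, log2 1.82, 1.36 and 0.25), held E2F letters. Mcm5, Mcm6, Lig1, Pola1 and Uhrf1, with negative differences (-1.48, -1.73, -0.97, -1.13 and -1.17), held them too. Tested replication genes whose promoters lacked E2F letters all had negative differences, and a link with the letters was not tested. Of these, Rfc4 (-2.90) held none of the letters. Dut (-2.33) also held none, but its window was that of NM_023595. The start of NM_001159646, which held the Dut FPKM in Krt6a+ library 2 and WAP+ libraries 1 and 3, lay outside the window. Among mitosis genes Cks1b and Top2a both held CHR and CCAAT letters, with differences of -1.48 and -0.14. A match is a description of letters and not a bound site.

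Some members share exons with a gene on the opposite strand in the GENCODE M21 annotation of GRCm38, and the library kit does not mark strand, so their values are uncertain. The shared part was 67.3% of the exon bases of Gins2 (with Gse1), 78.8% of Fen1 (with Gm10143), 29.3% of Kif20a (with Cdc23), 22.8% of Ube2c (with Tnnc2), 12.65% of Rfc4 (with Eif4a2) and 12.5% of Ccna2 (with Exosc9). Ccnb1, Ccnb2, Pcna and Tyms have annotated pseudogenes that carry their names, and how reads shared with these were placed is not given in the sources used here. Cks1b, Birc5, Cdk1, Dut, Mcm2 and Mcm5 shared no exon base with another annotated gene. Copies elsewhere in the genome under other names were not searched for, for these or any other members.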

How the data were processed

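Per the labels' protocols, cDNA of 2 Krt6a+ and 3 WAP+ pools was amplified with a SMART-Seq kit, made into Nextera libraries and sequenced in pairs. Per the submitters' processing notes, TopHat, Cufflinks and mm10 were used, with versions not given in the sources used here. Per the file headers, each table lists 34535 RefSeq transcripts with FPKM and its bounds, computed by the authors. The bounds are read here as 95% limits, which the headers do not state, and cover counting error only.

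Transcripts of a symbol were summed and divided by a library factor, taken as the median of each library's ratios to gene-wise geometric means across 5334 genes (at least FPKM 1 everywhere; 0.980 and 1.13 for Krt6a+, 1.14, 0.909 and 0.873 for WAP+). Genes at FPKM 1 or more in 2 libraries, 9682 in all, were fitted on log2(scaled FPKM + 1) with limma 3.58.1 in R 4.3.3 (trended prior; 3 degrees of freedom from the residuals and 4.87 from the prior; two-sided p-values, Benjamini-Hochberg adjustment over all tested genes, threshold 0.05). Differences understate changes of low genes. The script was tested on simulated data.

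The members and gene lists were chosen with earlier results of these data known. The rule for named genes took the members past the threshold, those of non-overlapping groups with the 6 largest statistics in each set, Mki67, Pcna, Mcm2, Top2a, Cdk1 and Ccnb1, and from other lists the 3 genes with the largest statistic. The remaining members are given to account for all 44. Alternatives, of which those on genes above 0 in every library and on the mitosis sum without Cks1b were added after seeing the data, were other pseudocounts, filters, scalings and transcript summaries, no trend, a replicate block and leaving out each library.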

Additional observations from a re-analysis of the deposited data

How the results depend on the processing

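No member passed the adjusted threshold under any of the 15 alternatives (limma, 0 called; before adjustment, at p under 0.05, 1 to 4 genes of each set). Over all tested genes 67 passed, and other settings gave 26 (pseudocount 0.1), 5 (no filter), 103 (FPKM 1 or more in 4 libraries), 16 (no mean-variance trend), 167 (genes above 0 in all libraries, added after seeing the data) and, leaving out 1 library, 5 to 147. Without WAP+ library 1, 2 or 3 the counts were 6, 5 and 6, and without Krt6a+ library 3 it was 147. With the library number as a replicate block, 34 genes passed and the medians were -1.02 for replication and -1.17 for mitosis genes. Deviations of libraries that share a number correlated at 0.05 (number 2) and 0.000266 (number 3). The deviations of the 2 Krt6a+ libraries mirror each other, so these values cannot tell whether a shared number is a pairing. The medians, -1.15 and -1.16, were -2.76 and -1.91 with a pseudocount of 0.1, -0.39 and -0.45 with 5, and -0.45 (6 genes) and -1.71 (2 genes) for genes above 0 in all libraries. Without a filter the mitosis median was -0.61. Leaving out 1 library the medians ran from -1.42 to -0.84 and from -1.61 to -1.07. At FPKM 1 or more in place of above 0, the numbers of genes were 8 and 8 against 17, 18 and 12 for replication and 3 and 5 against 11, 11 and 9 for mitosis. Pcna, -0.24, turned to 0.14 with the replicate block and to 0.12 without WAP+ library 1, in a range of -0.62 to 0.12 over the libraries left out. Top2a, -0.14, turned to 0.42 without Krt6a+ library 2, in a range of -0.39 to 0.42 over the 3 left-out libraries for which it was still tested. With a pseudocount of 0.1 Top2a was -0.87. The cause of these shifts was not tested. Read totals are not given, so what depth limits is unknown.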
